A study of Mus musculus with 6 samples.

Results

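The genes described here are 10 markers of mast cells: the mucosal chymase genes Mcpt1 and Mcpt2, the connective tissue chymase genes Mcpt4 and Cma1, the carboxypeptidase gene Cpa3, the tryptase genes Tpsb2 and Tpsab1, the IgE receptor subunit genes Fcer1a and Ms4a2, and Hdc, which makes histamine. They were chosen by gene symbol, and all 10 were present among the 21374 genes of the table. The colon samples came from C57BL/6 male mice in 2 groups, 3 libraries labelled Otud1-/- and 3 labelled wild type. Every mouse of both groups received the carcinogen azoxymethane into the peritoneum on day 0, at an age of 6 weeks. It then passed through 3 rounds of dextran sulfate sodium in the water (1.5%, 4 days each), with 14 days of plain water after each. Distal colon was collected on day 81, when the mice were 18 weeks old, and RNA was made from the tissue left next to the tumours after these had been cut off. Samples without azoxymethane and dextran sulfate sodium were not analysed here. Otud1 encodes a deubiquitinase. The labels do not say how the Otud1 allele was made or whether each library came from its own animal, and the spread behind each p-value is therefore one among libraries that can be technical. Libraries are named below by label and number, such as Otud1-/- 1 and wild type 1.

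Mast cells are tissue cells of the immune system that store proteases, histamine and heparin in granules and release them when antigen cross-links IgE on their surface. In the mouse gut, mucosal mast cells sit in or just below the epithelium and store the chymases encoded by Mcpt1 and Mcpt2, while connective tissue mast cells of the submucosa and muscle coat store those encoded by Mcpt4 and Cma1 together with tryptase and carboxypeptidase. Both kinds need stem cell factor acting on the receptor Kit, and the transcription factor Gata2 is needed for their development. Some of the 10 genes are shared with other cells: basophils carry the IgE receptor and make histamine, and some myeloid cells also transcribe Hdc.

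The promoters of Mcpt1, Mcpt4 and Cpa3 are shown first, because these genes stand for the mucosal chymases, the connective tissue chymases and the protease whose levels followed Mcpt1 most closely. Each stretch runs from 250 bases before to 50 bases after the annotated start (RefSeq, GRCm38.p6). Capitals mark GATAA, the core of the sites that GATA factors bind, and TATAA, the core of a TATA box. Both strands were searched, so a match on the other strand appears as TTATC or TTATA.
Mcpt1 promoter, chr14:56017714-56018013 (plus strand): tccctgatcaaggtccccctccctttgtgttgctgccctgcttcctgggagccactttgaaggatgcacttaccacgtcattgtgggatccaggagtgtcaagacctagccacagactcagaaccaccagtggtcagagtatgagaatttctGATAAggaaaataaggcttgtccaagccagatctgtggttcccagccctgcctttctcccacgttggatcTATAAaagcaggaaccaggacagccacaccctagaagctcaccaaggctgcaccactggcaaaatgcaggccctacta
Mcpt4 promoter, chr14:56062261-56062560 (minus strand): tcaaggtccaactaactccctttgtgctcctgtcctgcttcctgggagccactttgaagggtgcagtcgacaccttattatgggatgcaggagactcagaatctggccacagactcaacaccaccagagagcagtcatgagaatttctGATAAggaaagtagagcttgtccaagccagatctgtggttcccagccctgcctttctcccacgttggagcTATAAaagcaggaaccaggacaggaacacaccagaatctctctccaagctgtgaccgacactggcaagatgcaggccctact
Cpa3 promoter, chr3:20242132-20242431 (minus strand): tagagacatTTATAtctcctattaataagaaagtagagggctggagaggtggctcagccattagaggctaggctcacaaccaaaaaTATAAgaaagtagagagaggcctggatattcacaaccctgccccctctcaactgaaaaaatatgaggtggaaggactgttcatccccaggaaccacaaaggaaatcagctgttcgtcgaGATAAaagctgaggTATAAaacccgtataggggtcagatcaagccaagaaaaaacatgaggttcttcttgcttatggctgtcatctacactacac

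The Mcpt1 and Mcpt4 promoters were 80.6% identical, and the genes are transcribed from opposite strands and belong to different mast cell types. In both, GATAA lay before TATAA, beginning at position -98 in Mcpt1 and -102 in Mcpt4, and TATAA began at -28 and -32. In Cpa3, which shared 43.2% of aligned bases with Mcpt1, GATAA began at -45 and TATAA at -31. Promoters were listed for 7 of the 10 genes, and GATAA was found in 6 of them (Mcpt1, Mcpt4, Cma1, Cpa3, Fcer1a and Ms4a2), whereas 25.4% of 32851 promoters of the same length held it. Hdc was the 1 without a match. TATAA was found in 5 of the 7, against 24.9% of all promoters. The letters CATGTG, a form of the E-box that the mast cell factor Mitf can bind, were found in 1 of the 7, Fcer1a, against 14.2% of all promoters. The motifs do not overlap each other in these windows. A match describes the letters of the window and is not a site shown to be bound.

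Mcpt1, Mcpt2 and Mcpt4 are close copies of each other, which bears on how well reads can be assigned to each. Their coding sequences (GENCODE vM21) were 86.5% identical between Mcpt1 and Mcpt4, 81.0% between Mcpt1 and Mcpt2 and 78.8% between Mcpt2 and Mcpt4. The stretch below covers coding bases 1 to 90, which hold the signal peptide and the start of the protease, and capitals mark bases that differ from Mcpt1.
Mcpt1 coding start: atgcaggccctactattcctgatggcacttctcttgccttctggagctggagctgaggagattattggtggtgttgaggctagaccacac
Mcpt2 coding start: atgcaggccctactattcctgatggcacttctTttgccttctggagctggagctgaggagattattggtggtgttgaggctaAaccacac
Mcpt4 coding start: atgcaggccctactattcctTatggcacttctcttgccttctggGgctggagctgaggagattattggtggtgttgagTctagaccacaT
Mcpt2 differed from Mcpt1 at 2 of these 90 bases and Mcpt4 at 4. Over the whole transcripts, no window of 50 bases of Mcpt1 (0 of 965) or Mcpt2 (0 of 1012) was repeated exactly in any other annotated gene. Windows that differed by a single base were not counted as shared, and shorter windows were not searched. Mcpt4 shared 5.48% of its windows with its neighbours Cma2 and Mcpt9, and Cma1 shared 5.38% with the predicted gene Gm48934. The share was 2.1% in Ms4a2 and 0.141% in Hdc, and no window was shared in Cpa3 and Fcer1a. The tryptase genes Tpsb2 and Tpsab1, whose coding sequences were 67.3% identical, shared none. What read length was used and how reads with several matches were treated is not given in the sources used here.

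Libraries held between 15300937 and 19406407 reads assigned to genes, and values are given as normalised read counts, which are reads divided by a size factor of the library. Otud1 itself went against the labels. It stood at 141, 150 and 208 normalised reads under the label Otud1-/- and at 111, 45.1 and 48.9 under the label wild type, with every Otud1-/- value above every wild type value (limma, log2 change 1.37 ± 0.35 SE, adjusted p = 0.0934). All directions are therefore those between libraries as labelled. Here and below a log2 change is the difference in log2(value + 1), Otud1-/- minus wild type. Over all 21281 genes tested, 202 were called, 60 higher and 142 lower in the libraries labelled Otud1-/-, and the number called ranged from 10 (without wild type 3) to 351 (without Otud1-/- 2) when 1 library was left out. The samples do hold mast cell RNA: each of the 10 genes was read in all 6 libraries, with the exception of Tpsab1, which had 0 reads in wild type 1.

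None of the 10 mast cell genes passed the test between the labelled genotypes, although all 10 had a positive change in the libraries labelled Otud1-/-. A gene was called at a Benjamini-Hochberg adjusted p under 0.05 (limma), which 0.949% of all genes tested reached, 0.282% with a higher level in Otud1-/-. The adjusted p of the 10 genes lay between 0.209 (Tpsab1) and 0.904 (Fcer1a), and 1 of them, Tpsab1, had an unadjusted p under 0.05 (0.0299), as did 9.50% of all genes in that direction. A positive change was found in 51.7% of all genes. The median log2 change of the 10 genes was 0.94, beside 0.02 for all genes tested. Changes of at least 1 on this scale (a doubling of the value plus 1) were found for 4 of the 10 genes, Mcpt2, Mcpt4, Tpsb2 and Tpsab1, and for 7.57% of all genes. The spread between libraries was wide: the standard error of the change had a median of 0.62 over the 10 genes, beside 0.21 over the 13323 genes whose mean values fell in the same range (15.0 to 1664). Those genes were not matched to the 10 by level, since all but Mcpt1 and Mcpt2 lie near the low end of that range. The part of low level in the wider errors was not tested. In bulk tissue, a different number of mast cells and a different amount of RNA in each of them cannot be told apart.

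The mucosal chymase genes were the most abundant of the 10. Mcpt1 (ENSMUSG00000022227.4, chromosome 14, 56017971 to 56020384, GRCm38) had 3088, 2482 and 977 normalised reads in Otud1-/- 1, 2 and 3, against 727, 1620 and 1089 in wild type 1, 2 and 3. The genotypes overlapped, since Otud1-/- 3 lay below wild type 2 and 3. The means were 2182 ± 1087 in Otud1-/- and 1145 ± 449 in wild type (SD, n = 3 each), and the log2 change of 0.85 ± 0.53 SE did not pass (limma, adjusted p = 0.446). Mcpt2 (ENSMUSG00000022226.5, chromosome 14, 56042041 to 56044642) encodes a second chymase of the same cells. Its values were 1906, 1123 and 526 in Otud1-/- 1, 2 and 3, against 232, 776 and 452 in wild type 1, 2 and 3. Here Otud1-/- 1 and 2 stood above every wild type library, and Otud1-/- 3 lay between wild type 3 and wild type 2. The log2 change was 1.26 ± 0.65 SE (limma, adjusted p = 0.362).

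**Figure D1:**
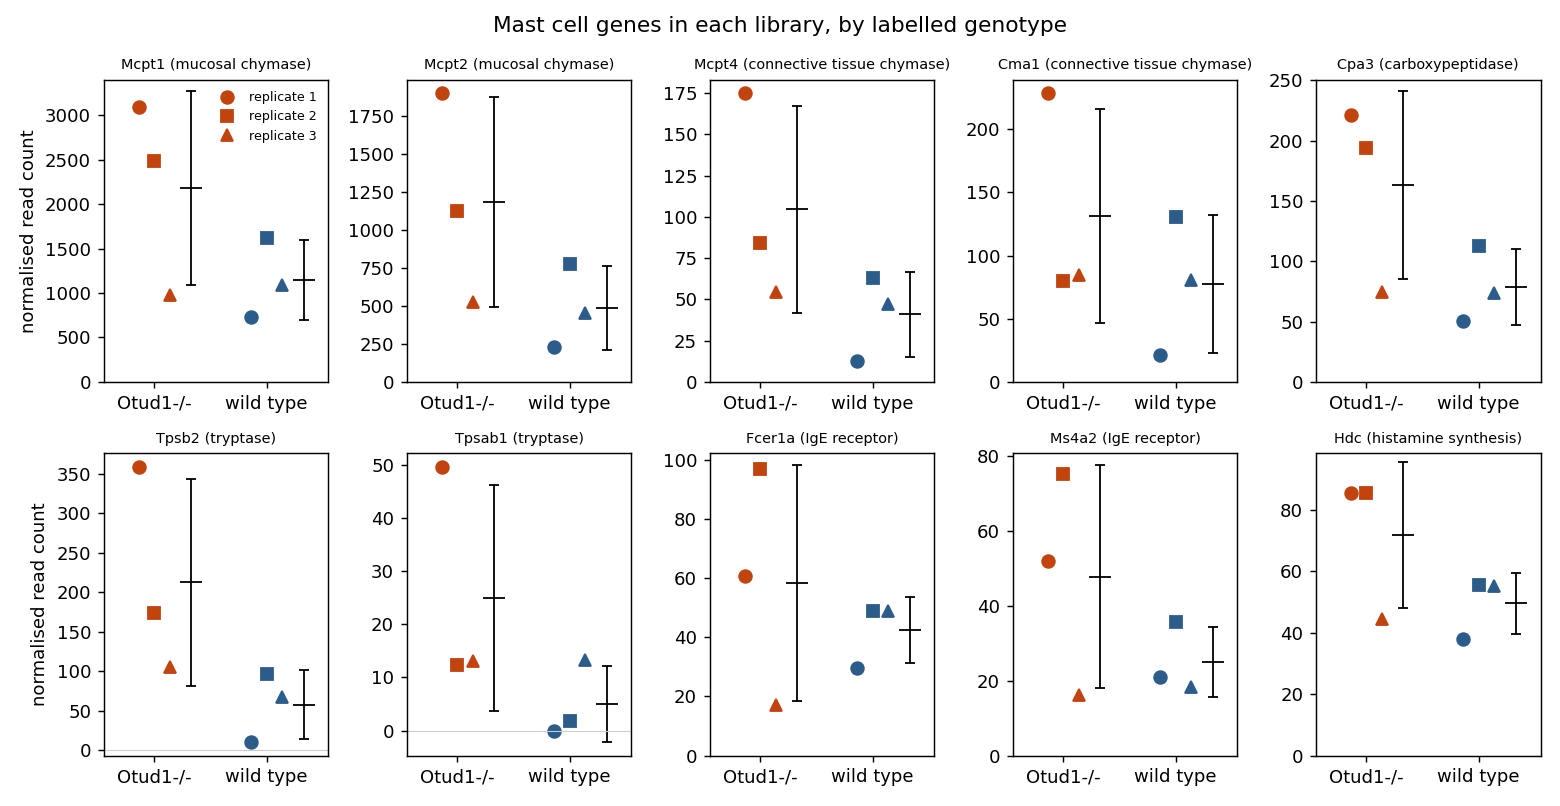
Normalised read counts of the 10 mast cell genes, with 1 panel per gene, a point per library (shape gives the replicate number) and bars for mean ± SD (n = 3). Otud1-/- 1 lies above every wild type library in all 10 panels, while Otud1-/- 3 lies inside the wild type range in 7.

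The connective tissue chymase genes had far fewer reads. Mcpt4, taken as the counterpart of human chymase (ENSMUSG00000061068.6, chromosome 14, 56059629 to 56062313), had 175, 84.4 and 54.5 normalised reads in Otud1-/- 1, 2 and 3, against 12.7, 63.0 and 46.9 in wild type 1, 2 and 3. Otud1-/- 3 lay between wild type 3 and wild type 2, so the genotypes overlapped (log2 change 1.44 ± 0.66 SE, limma, adjusted p = 0.293). Cma1 (ENSMUSG00000022225.6, chromosome 14, 55941451 to 55944675), a chymase gene whose mouse product cleaves like an elastase, had 229, 79.9 and 84.8 against 21.1, 131 and 80.6. Only Otud1-/- 1 stood above the wild type range for Cma1, because wild type 2 exceeded Otud1-/- 2 and 3 (log2 change 0.92 ± 0.75 SE, limma, adjusted p = 0.551). Without the libraries numbered 1 of both labels the log2 change of Cma1 was -0.32, so its direction depended on them.

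The balance between mucosal and connective tissue chymases was set out as the mean log2 level of Mcpt1 and Mcpt2 minus that of Mcpt4 and Cma1 in each library. This difference was 3.59, 4.33 and 3.38 in Otud1-/- 1, 2 and 3 and 4.57, 3.61 and 3.49 in wild type 1, 2 and 3. The genotypes overlapped, and their means, 3.77 ± 0.50 in Otud1-/- and 3.89 ± 0.59 in wild type (SD, n = 3 each), were 0.12 apart. No test was made of this score. Its sign was not stable: Otud1-/- minus wild type was -0.12 with all libraries, 0.12 after quantile normalisation, 0.22 without wild type 1, 0.07 without Otud1-/- 3 and 0.30 without the libraries numbered 1. The balance differed more between single libraries than between the labels. Wild type 1 had little of all 4 chymases but least of the connective tissue pair, so its Mcpt1 reads were 57.4 times its Mcpt4 reads, against 17.7 to 29.4 times in the other 5 libraries. Otud1-/- 2 was high for Mcpt1 and Mcpt2 and not for Cma1, and its Mcpt1 reads were 31.1 times its Cma1 reads, against 13.5 in Otud1-/- 1 and 11.5 in Otud1-/- 3. Wild type 1 had the highest ratio of Mcpt1 to Cma1, 34.5, and wild type 2 and 3 had 12.4 and 13.5. These ratios are not corrected for gene length and serve to compare libraries. Within the connective tissue pair, log2 Mcpt4 minus log2 Cma1 was -0.38, 0.08 and -0.63 in Otud1-/- 1, 2 and 3. It was -0.69, -1.04 and -0.77 in wild type 1, 2 and 3. The labels did not overlap, but Otud1-/- 3 (-0.63) and wild type 1 (-0.69) were close, and no test was made. The wild type 1 value rests on 12 reads of Mcpt4 and 20 of Cma1, so counting error alone could close this gap.

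**Figure D2:**
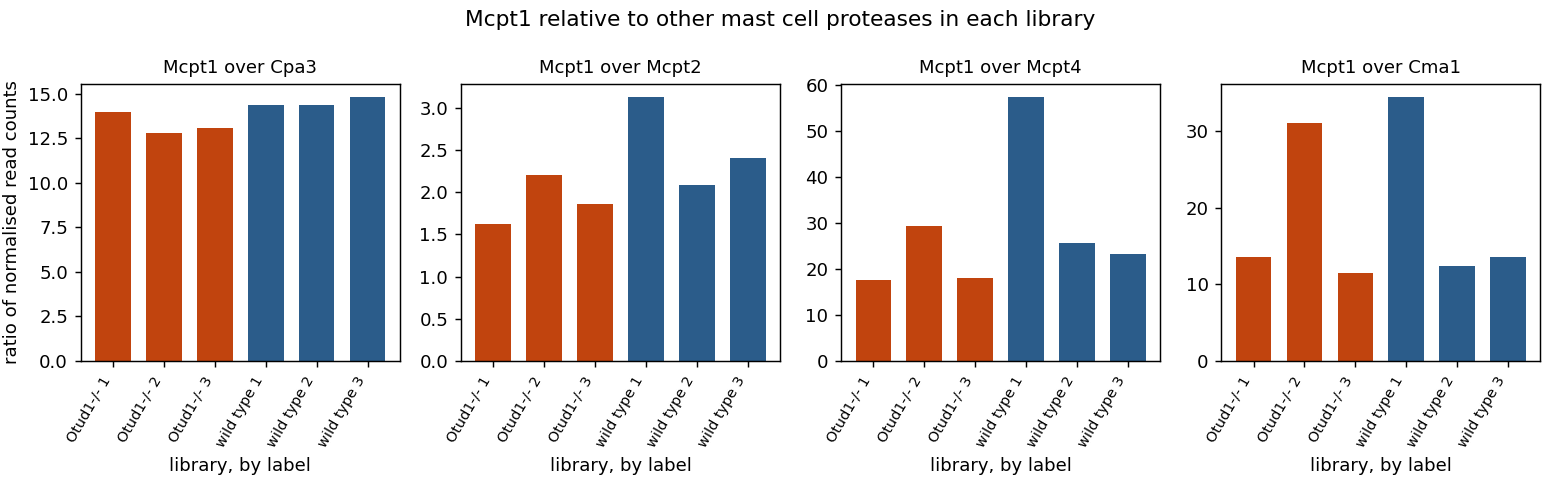
Ratio of the normalised read counts of Mcpt1 to those of Cpa3, Mcpt2, Mcpt4 and Cma1 in each library (a bar each, not corrected for gene length). The ratio to Cpa3 stays between 12.8 and 14.8 in all 6 libraries, while that to Mcpt4 spans 17.7 to 57.4.

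Cpa3, which encodes the carboxypeptidase that trims peptides inside the granule, followed Mcpt1 from library to library. Cpa3 (ENSMUSG00000001865.2, chromosome 3, 20215620 to 20242181) had 221, 194 and 74.7 normalised reads in Otud1-/- 1, 2 and 3, against 50.6, 113 and 73.4 in wild type 1, 2 and 3. Again Otud1-/- 1 and 2 were above all wild type libraries and Otud1-/- 3 was not (log2 change 0.97 ± 0.46 SE, limma, adjusted p = 0.295). While Mcpt1 varied 4.25-fold and Cpa3 4.37-fold over the 6 libraries, the ratio of Mcpt1 to Cpa3 was 14.0, 12.8 and 13.1 in Otud1-/- 1, 2 and 3 and 14.4, 14.4 and 14.8 in wild type 1, 2 and 3. The fewest reads behind these ratios were 48 of Cpa3, in wild type 1, and the ratio was lower in every Otud1-/- library, with no test made. After scaling every library to its epithelial markers, Cpa3 was the 1 gene of the 10 that passed (log2 change 1.46 ± 0.44 SE, limma, adjusted p = 0.0441). Under that scaling the median change of all genes was 0.50, beside 0.02 without it, and 10.7% of all genes were called as higher in Otud1-/-.

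The tryptase genes showed the widest span. Tpsb2, the main tryptase gene of mouse connective tissue mast cells (ENSMUSG00000033825.9, chromosome 17, 25366305 to 25369098), had 358, 174 and 105 normalised reads in Otud1-/- 1, 2 and 3, against 10.5, 95.9 and 67.3 in wild type 1, 2 and 3. It was the 1 gene of the 10 whose genotypes did not overlap, as was found for 13.0% of all genes in that direction and 26.3% in either. The lowest Otud1-/- value was close to the highest wild type value, and the log2 change of 2.15 ± 0.92 SE did not pass (limma, adjusted p = 0.28). It was 0.74 without the libraries numbered 1. Tpsab1 (ENSMUSG00000024173.10, chromosome 17, 25343245 to 25345562) encodes the other soluble tryptase, and the C57BL/6 strain is known to carry a splice site change in it that prevents the protein. It had the fewest reads of the 10, not corrected for gene length, with 49.5, 12.4 and 13.1 normalised reads in Otud1-/- 1, 2 and 3, against 0, 1.88 and 13.3 in wild type 1, 2 and 3. These values rest on 58, 11 and 13 reads in Otud1-/- and 0, 2 and 13 reads in wild type, and a count of 0 in wild type 1 allows up to 3.16 normalised reads (3 reads, counting error only). Otud1-/- 1 stood far above the rest, wild type 3 lay beside Otud1-/- 2 and 3, and the log2 change was 2.62 ± 0.99 SE (limma, adjusted p = 0.209).

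The IgE receptor genes were highest in Otud1-/- 2 and lowest in Otud1-/- 3, while Hdc ran close to the order of Mcpt1. Fcer1a encodes the chain that binds IgE (ENSMUSG00000005339.10, chromosome 1, 173221284 to 173227214). It had 60.6, 96.7 and 17.2 normalised reads in Otud1-/- 1, 2 and 3, against 29.5, 48.9 and 48.9 in wild type 1, 2 and 3. Thus Otud1-/- held both the highest and the lowest library for Fcer1a, and the log2 change was 0.17 ± 0.59 SE (limma, adjusted p = 0.904). Its sign turned when wild type 1 was left out (-0.06), when Otud1-/- 1 was left out (-0.01), when Otud1-/- 2 was left out (-0.34) and when the libraries were weighted (-0.44). Ms4a2 (ENSMUSG00000024680.12, chromosome 19, 11615523 to 11623719), which encodes the signal-amplifying chain of the same receptor, had 52.1, 75.4 and 16.1 against 21.1, 35.7 and 18.4. As with Fcer1a, Otud1-/- 2 was highest and Otud1-/- 3 lowest (log2 change 0.71 ± 0.55 SE, limma, adjusted p = 0.512). Hdc, which encodes histidine decarboxylase (ENSMUSG00000027360.5, chromosome 2, 126593667 to 126619299), had the narrowest span, 2.25-fold. Its values were 85.3, 85.5 and 44.4 in Otud1-/- 1, 2 and 3 and 38.0, 55.5 and 55.1 in wild type 1, 2 and 3 (log2 change 0.49 ± 0.33 SE, limma, adjusted p = 0.451).

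Per kilobase of exon, the order of levels was led by Mcpt1 and Mcpt2 under both labels. Mcpt1 had 2152 ± 1072 normalised reads per kilobase in Otud1-/- and 1129 ± 443 in wild type (SD, n = 3 each), and Mcpt2 had 1117 ± 652 and 459 ± 258. A wide gap followed, and it was the only step in Otud1-/- at which mean ± SD of neighbouring genes did not overlap. Below it, levels in Otud1-/- ran from Tpsb2 (133 ± 82.2) through Cma1 (120 ± 77.6), Cpa3 (107 ± 51.3), Mcpt4 (94.4 ± 56.6) and Fcer1a (58.3 ± 39.9) to Ms4a2 (17.0 ± 10.6), Tpsab1 (11.9 ± 10.1) and Hdc (11.2 ± 3.71). In wild type the order was Cma1 (71.1 ± 50.4), Cpa3 (52.1 ± 20.8), Fcer1a (42.5 ± 11.2), Mcpt4 (36.9 ± 23.2), Tpsb2 (36.3 ± 27.3), Ms4a2 (8.91 ± 3.32), Hdc (7.75 ± 1.56) and Tpsab1 (2.41 ± 3.43). Tpsb2 thus stood at rank 3 in Otud1-/- and rank 7 in wild type, but its mean ± SD overlapped that of the gene next below it under both labels, and in wild type that of the gene next above it too. In wild type, the step from Hdc to Tpsab1 also separated.

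**Figure D3:**
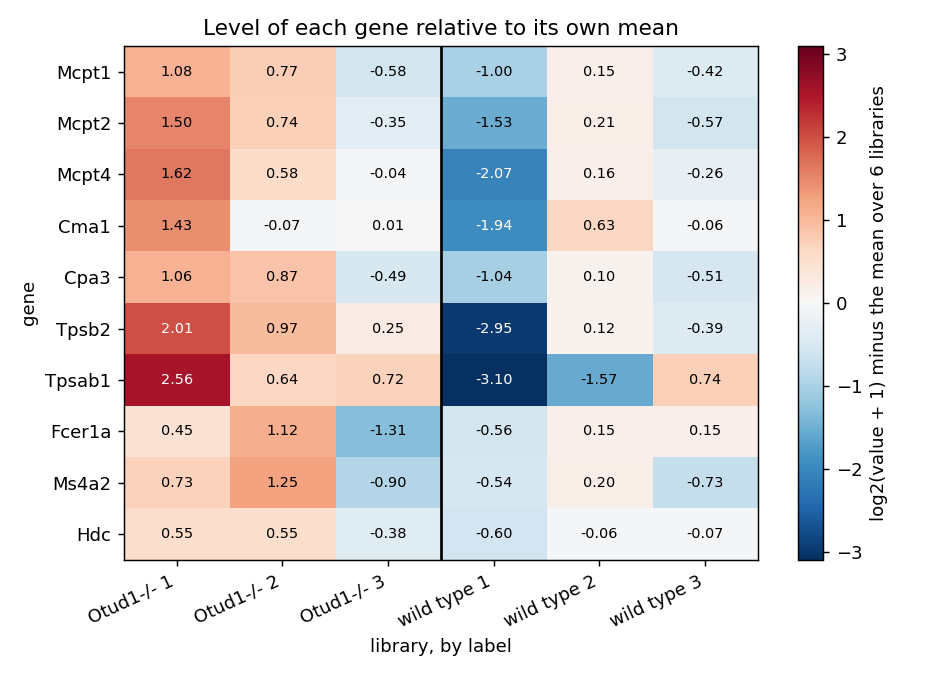
Level of each of the 10 genes in each library as log2(value + 1) minus the gene's mean over the 6 libraries, red above and blue below that mean. Otud1-/- 1 is above the mean for all 10 genes and wild type 1 is below it for all 10, down to -3.10 for Tpsab1.

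Read across genes, the levels were ordered by library more than by label. Otud1-/- 1 exceeded every wild type library for all 10 genes and was the highest library for 7 of them, the proteases Mcpt1, Mcpt2, Mcpt4, Cma1, Cpa3, Tpsb2 and Tpsab1. Otud1-/- 2 exceeded every wild type library for 8 genes and was highest for Fcer1a, Ms4a2 and Hdc. Otud1-/- 3 lay inside the wild type range for 7 genes, above it for Tpsb2 and below it for Fcer1a and Ms4a2. Wild type 1 was the lowest library for 8 genes, and wild type 2 was above it for all 10. The share of all genes with such orders was not counted, so these counts do not set the 10 genes apart. Across all genes tested, the deviations of Otud1-/- 1 and wild type 1 from the means of their labels correlated at -0.26. The mean log2 level of the 10 genes was 7.78, 7.23 and 6.18 in Otud1-/- 1, 2 and 3 and 4.95, 6.49 and 6.27 in wild type 1, 2 and 3. For the 7 proteases the mean was 8.53, 7.57 and 6.85 against 4.98, 6.89 and 6.71, and for Fcer1a, Ms4a2 and Hdc it was 6.04, 6.43 and 4.60 against 4.89, 5.55 and 5.24.

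Otud1-/- 1 was the highest library for 7 of the 10 genes, and wild type 1 was the lowest for 8. A smaller change without these libraries follows from their places and is no test of the change. Without both, 8 of the 10 genes kept a positive change, the median log2 change was 0.34, and Cma1 (-0.32) and Fcer1a (-0.25) turned negative. The median was 0.60 without Otud1-/- 1 alone and 0.66 without wild type 1 alone, beside 1.36 without wild type 2 and 1.40 without Otud1-/- 3. No gene of the 10 was called in any of these fits.

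**Figure D4:**
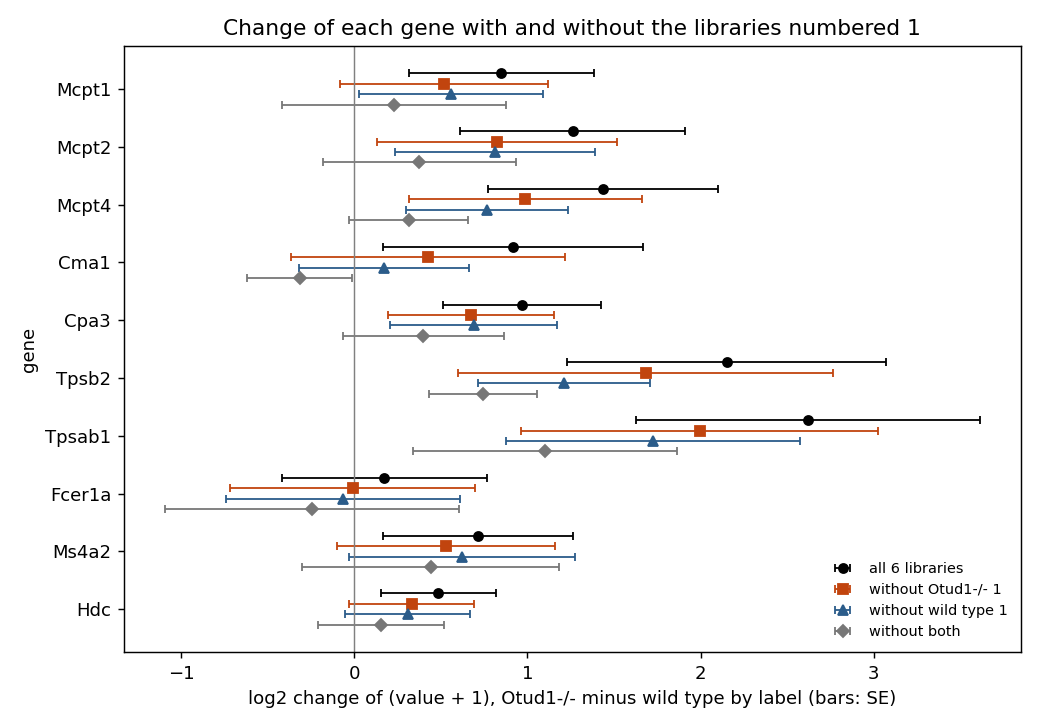
Log2 change of each gene, Otud1-/- minus wild type by label, with its standard error, from all 6 libraries and without the libraries numbered 1. Tpsb2 moves from 2.15 with all libraries to 0.74 without both, and Cma1 and Fcer1a cross 0.

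The genes whose levels were most like those of Mcpt1 and of Mcpt4 over the 6 libraries were sought among 13148 named genes with a mean of at least 50. Likeness was measured as the root mean square difference between log2 levels centred on each gene's mean. Cpa3 was the closest gene to Mcpt1, at 0.07, followed by Prex2 (0.16), a regulator of Rac, Tgm4 (0.19), a transglutaminase, and the kinase gene Mark1 (0.21). Of the other mast cell genes above that mean, Mcpt2 ranked 19, Hdc 51, Fcer1a 471, Mcpt4 658, Cma1 1866 and Tpsb2 10986. Prex2 had 301, 182 and 79.7 normalised reads in Otud1-/- 1, 2 and 3 against 68.6, 129 and 80.6 in wild type 1, 2 and 3. For Mcpt4 the closest genes were no mast cell genes of the lists but Fgfrl1 (0.16), a receptor-like protein gene, Ccdc141 (0.16), Amer2 (0.17) and the matrix protein gene Mgp (0.20). Mcpt2 ranked 29, Cma1 45, Tpsb2 92, Cpa3 152, Mcpt1 157, Hdc 524 and Fcer1a 2256. None of these 8 genes passed the test between the labels (limma, adjusted p of 0.202 to 0.424). The points of comparison are 6 libraries, so many genes can share such an order. With a minimum mean of 200, 2 of the 4 genes for Mcpt4 and 0 of the 4 for Mcpt1 were named again, since Cpa3, Prex2, Tgm4 and Mark1 all lie below that mean.

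Of the other genes tied to mast cells, none passed the test in either direction. Among lineage, granule and mediator genes, 0 of 16 tested were called, 7 with positive and 9 with negative changes (median -0.10). Gata2, the transcription factor gene named above, had 157, 100 and 60.5 normalised reads in Otud1-/- 1, 2 and 3 and 27.4, 59.3 and 72.4 in wild type 1, 2 and 3 (log2 change 0.99 ± 0.45 SE, limma, adjusted p = 0.266). Like the proteases, Gata2 was highest in Otud1-/- 1 and lowest in wild type 1. So were markers of other cells, such as the enterochromaffin marker Slc18a1 and the neutrophil marker Retnlg. The share of all genes with this order was not counted. Kit, the receptor for stem cell factor, which pacemaker cells of the gut also carry, was chosen after its values were seen and did not share that order: it had 580, 426 and 632 against 459, 445 and 435 (0.27 ± 0.16 SE, adjusted p = 0.385). Rab27b, a gene of granule release in several secretory cells, had 639, 581 and 713 against 951, 1079 and 959 and just missed the threshold (log2 change -0.63 ± 0.12 SE, limma, adjusted p = 0.0519). The heparin core protein gene Srgn, common to many blood cells, had 480, 574 and 631 against 999, 725 and 664 (log2 change -0.49 ± 0.17 SE, limma, adjusted p = 0.179).

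Related protease genes had changes in both directions. Of 6 tested genes of the chymase and tryptase loci, 0 were called, 3 with positive and 3 with negative changes (median 0.08). Mcpt8, the protease gene of mouse basophils, had 7.68, 6.75 and 3.03 normalised reads in Otud1-/- 1, 2 and 3 and 0, 0 and 1.02 in wild type 1, 2 and 3 (log2 change 2.36 ± 0.67 SE, limma, adjusted p = 0.114). The granule protease genes Gzmb (log2 change 0.43, adjusted p = 0.534) and Gzmc (2.32, adjusted p = 0.136, limma) did not pass, and Gzmc had at most 8.53 normalised reads. Tpsg1, which encodes a membrane-bound tryptase, had 405, 302 and 474 against 518, 717 and 769, so it lay lower in every Otud1-/- library (log2 change -0.76 ± 0.20 SE, limma, adjusted p = 0.103). Cma2 and Mcpt9, which share windows with Mcpt4 and were chosen after their values were seen, were highest in Otud1-/- 2, with 557 normalised reads of Cma2 and 215 of Mcpt9. Mcpt4 had 84.4 there and was highest in Otud1-/- 1, where Cma2 had 40.1 and Mcpt9 72.5. 

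Of the IgE receptor signalling genes, 0 of 14 were called and 13 had negative changes (median -0.61, and -0.04 without the libraries numbered 1). Fcer1g, which encodes the signalling chain that the IgE receptor shares with other receptors of myeloid cells, had 282, 352 and 270 normalised reads in Otud1-/- 1, 2 and 3 and 406, 542 and 468 in wild type 1, 2 and 3 (log2 change -0.64 ± 0.17 SE, limma, adjusted p = 0.0936). Its genotypes did not overlap. The changes of Fcer1a (0.17 ± 0.59 SE) and Ms4a2 (0.71 ± 0.55 SE) were positive, but their genotypes overlapped, and the sign of Fcer1a was not stable. The kinase gene Lyn (log2 change -0.70) and the inhibitory receptor gene Fcgr2b (-1.04) also lay lower in every Otud1-/- library and did not pass (limma, adjusted p = 0.0642 and 0.0543), nor did Btk (-1.05, adjusted p = 0.339). All of these are used by macrophages or B cells as well.

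Signals that feed or place mast cells gave 0 of 13 called, 4 with positive and 9 with negative changes. Kitl, which encodes stem cell factor, had 1790, 1583 and 1455 normalised reads in Otud1-/- 1, 2 and 3 and 1046, 1196 and 1022 in wild type 1, 2 and 3 (log2 change 0.56 ± 0.12 SE, limma, adjusted p = 0.0636). Every Otud1-/- library lay above every wild type library for Kitl, which missed the threshold. Il33, an alarm cytokine that acts on mast cells through the receptor encoded by Il1rl1, had 393, 125 and 130 against 41.1, 76.2 and 118 (1.36 ± 0.55 SE, limma, adjusted p = 0.243). Like the proteases, and like the markers Slc18a1 and Retnlg of other cells, Il33 was highest in Otud1-/- 1 and lowest in wild type 1. Il10, a cytokine that promotes mucosal mast cell proteases in culture, had 5.97, 16.9 and 5.05 against 28.5, 54.5 and 25.5 (-1.95 ± 0.51 SE, limma, adjusted p = 0.0991), and the adhesion molecule gene Vcam1 changed by -0.56 (adjusted p = 0.186). Of 6 genes for the breakdown and receptors of histamine or for the tryptase-sensitive receptor, 0 were called, 2 with positive and 4 with negative changes. F2rl1, the receptor gene that tryptase can activate, had 1360, 2097 and 1826 against 3084, 2698 and 2660 (log2 change -0.70 ± 0.16 SE, limma, adjusted p = 0.0758). Aoc1, which encodes the diamine oxidase that degrades histamine, changed by -0.43 (adjusted p = 0.168), and the histamine receptor genes Hrh2 and Hrh3, with at most 41.4 and 13.5 normalised reads, by -1.63 and 2.55 (adjusted p = 0.198 and 0.11). Hnmt, the other histamine breakdown gene of this list, was chosen after its values were seen and went the other way from Aoc1. It had 26.5, 40.5 and 25.2 against 17.9, 18.8 and 9.18 (log2 change 0.99 ± 0.40 SE, limma, adjusted p = 0.218).

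Markers of the other cells of the tissue also differed between libraries, and their part in the values of the mast cell genes was not tested. Smooth muscle markers had a higher sum in every Otud1-/- library, with summed normalised reads of 59406, 122770 and 89647 in Otud1-/- 1, 2 and 3 and 38012, 39596 and 36076 in wild type 1, 2 and 3, and 3 of 10 were called higher (Myh11, Synm and Myl9). Among the Otud1-/- libraries this sum was lowest in Otud1-/- 1, where it was still above that of every wild type library. Epithelium markers summed to 297030, 450230 and 345080 against 539830, 480560 and 567730, with 0 of 12 called and 11 negative changes. Fibroblast markers overlapped (12458 to 17175 in Otud1-/- and 13577 to 15897 in wild type), with 0 of 8 called. Macrophage markers summed to 5505 to 5847 in Otud1-/- and 8671 to 10142 in wild type, with 0 of 10 called and 10 negative changes.

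**Figure D5:**
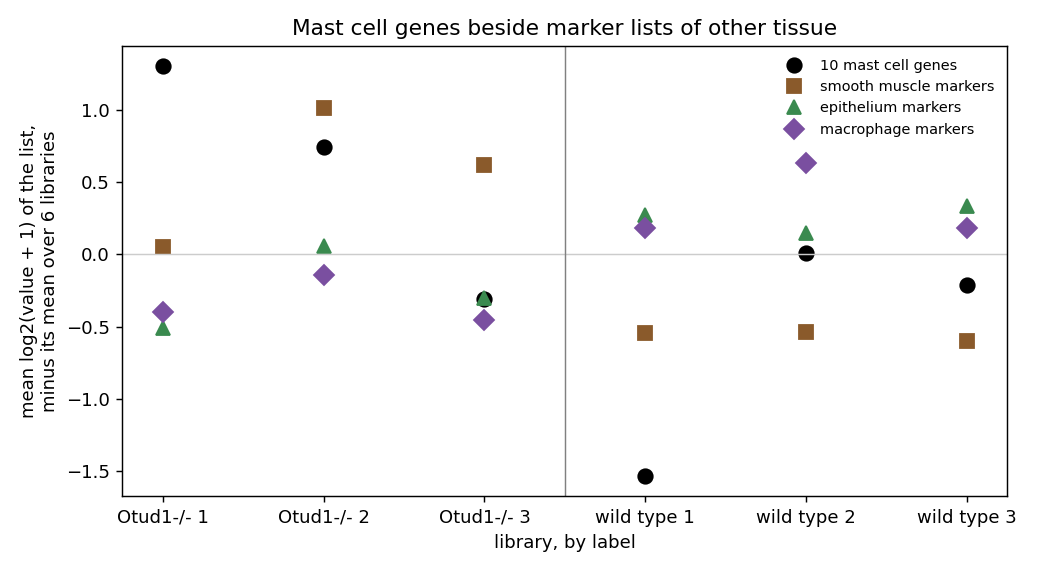
Mean log2(value + 1) of the 10 mast cell genes and of smooth muscle, epithelium and macrophage marker lists in each library, each minus its own mean over the 6 libraries. The mast cell points span 4.95 to 7.78 on the log2 scale before centring and are highest in Otud1-/- 1, while the smooth muscle points are highest in Otud1-/- 2.

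Cells that share single markers with mast cells were read from lists of their own. Basophil markers summed to 910 to 1277 in Otud1-/- and 773 to 959 in wild type, with 0 of 4 called. Itga2 held most of that sum in every library (1066, 600 and 743 against 590, 717 and 578). The sum therefore says little about the defining basophil gene Mcpt8, which had at most 7.68 normalised reads and 0 in wild type 1 and 2. Cd200r3 had at most 21.3. Prss34, the other defining basophil protease, was not among the 21374 genes and could not be tested. Absent as well were, among others, Epx and Ccr3 of the eosinophil list and Mrgprb1 and Mrgprb2 of the mast cell lineage list. Il3, Il9, Il13 and Il25, of the signals that feed or place mast cells, were also absent. Eosinophil markers summed to 240 to 548 against 207 to 427, and 1 of 4, the interleukin receptor gene Il5ra, fell (42.7, 42.8 and 48.4 against 110, 183 and 175, limma, adjusted p = 0.0287). Alox15 held most of the eosinophil sum in the Otud1-/- libraries and was the 1 marker with a positive change (453, 450 and 145 against 0, 133 and 200, limma, adjusted p = 0.496). Prg2 (-0.55) and Siglecf (-0.73) had negative changes and did not pass (limma, adjusted p = 0.381 and 0.475). Neutrophil and immature myeloid markers, which bear on Hdc, summed to 3054 to 3805 in Otud1-/- and 7409 to 10439 in wild type, with 1 of 9 called, Ly6g, lower (limma, adjusted p = 0.00857). Ly6g held most of that sum, with 1804, 2392 and 2845 normalised reads in Otud1-/- 1, 2 and 3 and 6276, 7096 and 8638 in wild type 1, 2 and 3. The 9 markers had 4 positive changes (S100a9, Cxcr2, Retnlg and Ngp) and 5 negative ones, and their part in the Hdc values was not tested. Enterochromaffin markers summed to 1740 to 2175 against 2134 to 2989 (0 of 4 called), with 3 negative changes and 1 positive, Slc18a1. Slc18a1 had 511, 135 and 145 against 48.5, 103 and 95.9 (log2 change 1.45 ± 0.57 SE, limma, adjusted p = 0.235). Pacemaker cell markers, which bear on Kit, summed to 6552 to 9013 against 8341 to 11581 (0 of 4 called), with 2 positive and 2 negative changes. Ano1 and Thbs4 held most of that sum in every library. Etv1 lay higher in every Otud1-/- library (87.0, 125 and 108 against 86.5, 80.9 and 69.3, limma, adjusted p = 0.357).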

How the data were processed

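RNA sequencing of tumour-adjacent colon gave 6 libraries, grouped by their titles. What the authors deposited is a normalised signal for each gene, and every column was a whole multiple of its own step (100% of values within 0.001 of a read), so the authors' values are described as normalised read counts, and reads per library were recovered for description. Build mm10 is named in the submitters' processing notes. Which aligner, counter, strand setting and annotation were used is not given in the sources used here. Of 21374 IDs, 21336 matched GENCODE vM21 (GRCm38) without the version suffix. Testing covered the 21281 genes that reached a value of 1 in 3 or more libraries, with limma (3.58.1, R 4.3.3; trend and robust, two-sided, Benjamini-Hochberg over all genes) on log2(value + 1), which understates changes of low genes, with genotype as the only term. The test was tried on simulated data. Marker genes and lists were chosen with earlier results of these data known, and named genes are the 10 genes, up to 4 genes of smallest p per list, Otud1 and the 4 genes closest to Mcpt1 and Mcpt4. Levels per kilobase use exonic lengths from GENCODE. Alternatives were other filters, pseudocounts, scalings, weights, a replicate block and left-out libraries.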

Additional observations from a re-analysis of the deposited data

How the results depend on the processing

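Of the 10 mast cell genes, 0 were called with limma with all libraries (1 at an unadjusted p under 0.05) and in 17 of 18 alternatives. The exception was scaling to the epithelium markers, with 1 called, Cpa3. Of 180 values of single genes, 173 kept direction and side of the threshold and 6 changed sign: Fcer1a with sample weights (-0.44), and with single libraries left out (-0.34 to 0.87, negative without wild type 1, Otud1-/- 1 or Otud1-/- 2), and both Fcer1a (-0.25) and Cma1 (-0.32) without wild type 1 and Otud1-/- 1 together. The median change of the 10 genes ranged from 0.60 to 1.40 with single libraries left out. The cause was not tested. The number of all genes called, 202, was 122 with a mean of at least 5, 118 with a pseudocount of 0.1, 416 after scaling to total reads (24.8% lower, against 70.3%, with the median of all genes at 0.22), 2372 after scaling to the epithelium markers (4.17% lower), 153 after quantile normalisation (60.1% lower), 564 with sample weights, 393 without wild type 1 and Otud1-/- 1, 0 without trend and robust (3499 at an unadjusted p under 0.05) and 10 to 351 with single libraries left out (334, 351 and 116 on omitting Otud1-/- 1, 2 or 3, and 35, 11 and 10 on omitting wild type 1, 2 or 3). Deviations of same-numbered libraries correlated at -0.26, -0.10 and -0.09 across genes, and those of differently numbered libraries at -0.08 to 0.16. These values show no positive tie between same-numbered libraries, but cannot decide whether the libraries were paired by design. The replicate block called 18 genes and 0 of the 10. Count tests (edgeR, DESeq2 and voom) were planned and not run. Low reads limit Tpsab1 most, with at most 58 reads in a library. Other genes were also low in single libraries. Wild type 1 had 10 reads of Tpsb2, 12 of Mcpt4 and 20 of Cma1, and Otud1-/- 3 had 16 of Ms4a2 and 17 of Fcer1a.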
